A study of Mus musculus with 4 samples.

Results

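The 9 genes described here encode carriers of the Slc22 family that move organic anions, organic cations and carnitine across the membranes of kidney cells. They were chosen by name, as the rows that carry the symbols Slc22a2, Slc22a4, Slc22a5, Slc22a6, Slc22a7, Slc22a8, Slc22a13, Slc22a18 or Slc22a19, among 22662 gene names found in the tables of all 4 libraries. RNA was taken from kidneys of mouse embryos at E18.5, shortly before birth, and read by sequencing. The 2 control libraries had the genotype Hnf4a c/+ with Six2GFPcre and the 2 mutant libraries Hnf4a c/c with Six2GFPcre, all of a strain given as mixed. Hnf4a encodes a nuclear receptor, a transcription factor of the proximal tubule and liver, and c marks its conditional allele. Six2GFPcre is a Cre recombinase made in nephron progenitors, so the cells of podocytes and tubules descend from cells that expressed it, whereas stroma, vessels and collecting ducts do not. The controls also carry the Cre and 1 conditional allele, so they are not intact for Hnf4a in these cells. The labels name no animals and do not say whether kidneys were pooled, so p-values measure only the spread between these libraries. By sex-specific transcripts, given further on, the 2 libraries of each group came from different animals or pools.

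The proximal tubule clears drugs, toxins and waste metabolites by taking them from blood on its basolateral side and passing them into the urine on its apical side. Organic anions enter through OAT1 and OAT3, encoded by Slc22a6 and Slc22a8, which exchange them for dicarboxylates, and organic cations enter through OCT2, encoded by Slc22a2. OCTN2, encoded by Slc22a5, works in the opposite sense for the body: it recovers carnitine, which carries fatty acids into mitochondria, from the filtrate. Slc22 carriers of the kidney appear late in nephron formation and continue to increase after birth.

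The sequences upstream of 4 of these genes are shown because the study removes a transcription factor. They belong to the adjacent pair Slc22a6 and Slc22a8, to Slc22a2 and to Slc22a5. Slc22a5 had similar values in both mutant libraries and control replicate 2, and no row of its own in control replicate 1. Each sequence is the 250 bases before the RefSeq gene start, 5′ to 3′ on the gene's strand. Coordinates are of build GRCm38.p6, which is not the mm9 build of the expression tables. RefSeq promoters matched 8 of the 9 genes, all except Slc22a7. By its distance from the start of Slc22a6, the Slc22a8 window falls inside the mm9 locus of Slc22a8 rather than before it. Capitals were reserved for matches to the HNF4 motifs named after the sequences, and these windows hold none.
Slc22a6, chr19:8617746-8617995, + strand: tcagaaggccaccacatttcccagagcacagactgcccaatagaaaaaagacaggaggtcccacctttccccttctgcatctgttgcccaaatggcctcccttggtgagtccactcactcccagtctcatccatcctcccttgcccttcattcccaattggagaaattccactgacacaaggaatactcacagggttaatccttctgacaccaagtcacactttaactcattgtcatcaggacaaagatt
Slc22a8, chr19:8592932-8593181, + strand: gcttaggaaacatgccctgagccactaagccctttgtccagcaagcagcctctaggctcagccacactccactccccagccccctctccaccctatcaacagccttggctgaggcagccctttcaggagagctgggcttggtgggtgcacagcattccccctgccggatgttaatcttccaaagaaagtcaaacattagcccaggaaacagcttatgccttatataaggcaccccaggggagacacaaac
Slc22a2, chr17:12583939-12584188, + strand: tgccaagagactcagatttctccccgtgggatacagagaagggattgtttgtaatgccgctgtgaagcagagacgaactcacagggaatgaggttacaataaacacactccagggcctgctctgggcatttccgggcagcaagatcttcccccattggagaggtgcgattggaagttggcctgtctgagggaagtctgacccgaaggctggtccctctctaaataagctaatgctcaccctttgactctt
Slc22a5, chr11:53891704-53891953, - strand: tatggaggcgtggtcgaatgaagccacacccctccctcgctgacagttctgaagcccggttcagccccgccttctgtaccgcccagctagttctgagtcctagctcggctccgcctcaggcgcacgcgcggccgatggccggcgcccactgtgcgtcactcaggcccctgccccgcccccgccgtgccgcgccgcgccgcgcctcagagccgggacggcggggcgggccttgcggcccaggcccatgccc

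The HNF4 core CAAAGTCCA (found in 0.384% of 32851 RefSeq promoter windows of this length), its form with 2 free bases CAAAGNNCA (5.49%), which contains the core, and the nuclear receptor motif AGGTCA (14%) were found on neither strand in any of the 8 windows. That says only that these letters are not in these windows. The windows also differed in composition. G and C made up 71.2% of the Slc22a4 window and 73.6% of the Slc22a5 window, against 35.6% for Slc22a19, 47.6% for Slc22a13, 48.4% for Slc22a6, 51.6% for Slc22a2, 52.8% for Slc22a18 and 55.2% for Slc22a8. The median over all windows was 52.4%, and 7.83% of windows were at or above Slc22a4.

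Of the 9 genes, 6 had a row of their own in every table. Slc22a4, Slc22a5 and Slc22a13 did not, because loci were assembled in each library separately and neighbouring genes were sometimes joined. Their values are given further on, by row and as sums over the joined names. Values are FPKM, fragments per kilobase of transcript scaled to the mapped fragments of the library, which is a level per length and can be compared between genes. The test was limma on log2(FPKM + 1) over the 13287 genes that reached 1 FPKM in 2 or more libraries, with Benjamini-Hochberg adjustment. Of the 6 genes, 5 were tested, all of them at 1 FPKM or more in every library, and Slc22a7 was too low. Adjusted over all tested genes, 0 of the 5 passed a threshold of 0.05 with limma, and of all tested genes 0.113% passed as lower and 0.0452% as higher. At an unadjusted p under 0.05, Slc22a2, Slc22a6, Slc22a18 and Slc22a19 were lower and none was higher, where 4.57% of tested genes were lower and 2.67% higher. A log2 change of -1 or lower was found for 3 of the 5, Slc22a2, Slc22a6 and Slc22a19, and for 1.63% of tested genes. Both mutant values lay below both control values in all 5, as in 17.1% of tested genes (22.7% had both above), and the median log2 change of the 5 was -1.22, beside 0.02 over all tested genes.

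**Figure D1:**
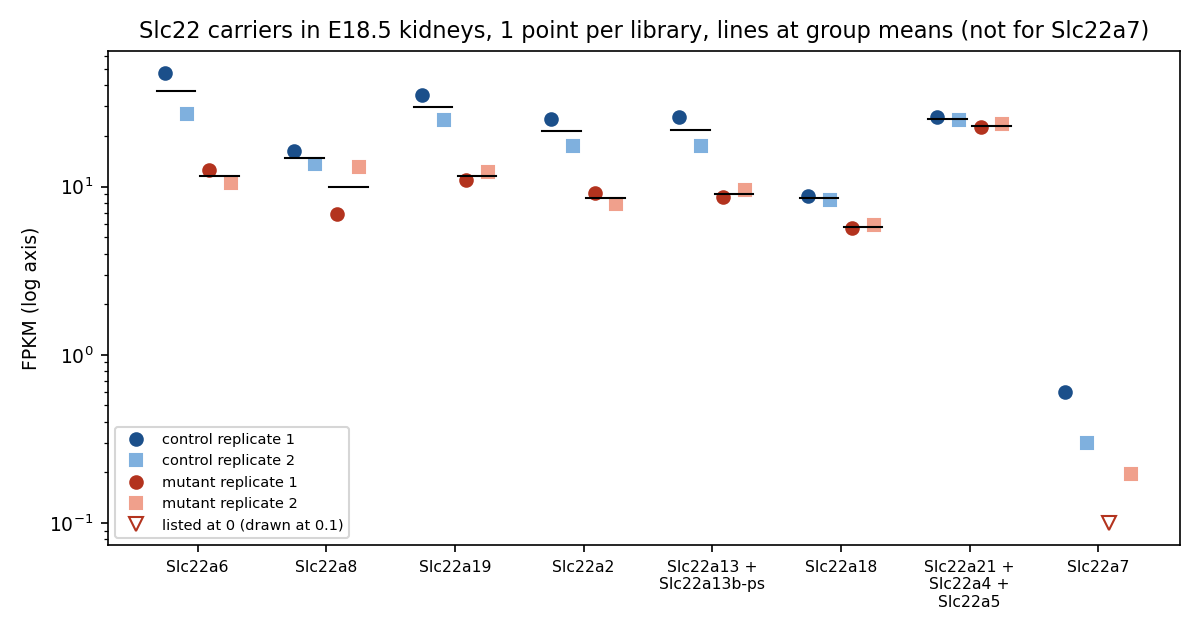
FPKM (log axis) of the Slc22 genes in each library, with 1 point per library and black lines at the group means; names joined by a plus sign are sums over names that some tables join in 1 row. Slc22a6, Slc22a19, Slc22a2 and the Slc22a13 locus sit well apart between groups, Slc22a8 of mutant replicate 2 (13.1) lies close to control replicate 2 (13.6), and the locus of Slc22a4 and Slc22a5 stays between 22.6 and 25.9 in every library.

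Slc22a6, which encodes the basolateral organic anion exchanger OAT1, was the most abundant of the 9 genes in controls. It lies at 8692485 to 8702789 of mm9 chromosome 19. Control replicates 1 and 2 held it at 47.3 and 27.2 FPKM, against 12.6 and 10.5 for mutant replicates 1 and 2. The groups did not overlap, and the controls differed from each other by far more than the mutant libraries did. The means were 37.2 ± 14.3 and 11.5 ± 1.45 FPKM (SD, n = 2 per group here and below), so that the mutant mean was 31.0% of the control mean. Its log2 change was -1.56 (SE 0.29; adjusted p = 0.25, limma).

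Slc22a8 encodes OAT3, a basolateral carrier with a wide range of anionic drugs and steroid conjugates. Its locus (8665743 to 8686325 of mm9 chromosome 19) ends 6160 bases before that of Slc22a6. Slc22a8 measured 16.2 and 13.6 FPKM in controls against 6.87 and 13.1 FPKM in mutants. Mutant replicate 1 was low, while mutant replicate 2 was just under the lower control. The log2 change was -0.59 (SE 0.32; adjusted p = 0.76, limma). Without mutant replicate 2 it was -1.01, with an unadjusted p of 0.0098, and without mutant replicate 1 it was -0.16. The interval within the library that the authors deposited, whose level the sources used here do not give, ran from 8.51 to 17.8 FPKM for mutant replicate 2 and from 5.23 to 8.52 for mutant replicate 1.

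The ratio of these adjacent anion carriers varied between libraries. The FPKM of Slc22a6 over that of Slc22a8 was 2.92 and 2.0 in controls against 1.83 and 0.799 in mutants. Both mutant ratios were below both control ratios, and the ratio was not tested. Mutant replicate 2 also stood apart in a list of 7 hepatocyte genes, which summed to 92.9 FPKM there and to between 40.7 and 53.1 in the other libraries. Alb, the albumin gene, was at 21.1 FPKM in it and at 0.295, 1.09 and 1.11 in control replicates 1 and 2 and mutant replicate 1. Afp was at 40.3 FPKM in it and at 25.8, 33.8 and 25.2 in the same order. The list did not move as a whole, as Ttr was at 9.75 FPKM in it, below both controls (14.7 and 10.9) and above mutant replicate 1 (5.51). The part of these hepatocyte genes in the Slc22a8 value was not tested.

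Slc22a19 encodes OAT5, an apical exchanger of organic anions in rodents (mm9 chromosome 19, 7747565 to 7785800 in 3 tables). Slc22a19 measured 35.0 and 25.01 FPKM in controls against 10.9 and 12.3 in mutants. Both control values were more than 2 times either mutant value. The means were 30.0 ± 7.04 and 11.6 ± 0.949 FPKM, or 38.6% of control, with a log2 change of -1.28 (SE 0.19; adjusted p = 0.17, limma). The locus started at 7747252 in control replicate 2, so its boundary moved there. Related genes such as Slc22a26, Slc22a27 and Slc22a28 follow it on chromosome 19 with rows of their own, and whether reads were split between them was not checked.

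Slc22a7 encodes OAT2, an organic anion carrier best known from liver. The tables list it at 0.603 and 0.297 FPKM for the controls, and at 0 and 0.196 for the mutants. These levels are under the filter in every library, so Slc22a7 was not tested and no fold is given. It was the lowest of the genes with a row in every table.

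Slc22a2 encodes OCT2, the basolateral entry for organic cations such as metformin. It lies on mm9 chromosome 17, from 12777054 to 12821354 in 3 tables and from 12776881 to 12821397 in control replicate 1. Slc22a2 measured 25.4 and 17.4 FPKM in controls against 9.17 and 7.86 in mutants. The groups lay apart, with control replicate 1 again the highest. The means were 21.4 ± 5.69 and 8.52 ± 0.928 FPKM, or 39.8% of control, and the log2 change was -1.22 (SE 0.22; adjusted p = 0.23, limma).

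Slc22a18 encodes an orphan carrier that sits apart from the rest of the family and lies in an imprinted gene cluster, at 150659659 to 150685237 of mm9 chromosome 7. Controls held 8.86 and 8.32 FPKM against 5.66 and 5.93 in mutants. Replicates agreed closely within each group and the groups did not overlap. The means were 8.59 ± 0.382 and 5.80 ± 0.195 FPKM, or 67.5% of control, with a log2 change of -0.50 (SE 0.13; adjusted p = 0.47, limma). Its unadjusted p of 0.0165 was 0.088 without mutant replicate 1 and 0.065 without mutant replicate 2. Its neighbours in the imprinted cluster were Phlda2, a growth restraining gene 2215 bases away, and Cdkn1c, a cell cycle inhibitor 12628 bases away. Phlda2 was at 10.8 and 12.6 FPKM in controls and 6.69 and 6.45 in mutants (log2 change -0.74, SE 0.14, adjusted p = 0.27, limma). Cdkn1c was at 234 and 177 FPKM against 183 and 167, so that its groups overlapped.

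Slc22a13 encodes OAT10, an apical exchanger that carries urate and nicotinate. It had its own row (mm9 chromosome 9, 119102095 to 119118223) in 3 libraries, at 12.1 FPKM in control replicate 2 and at 5.95 and 6.68 in mutant replicates 1 and 2. The mutant values were thus 49.1% and 55.1% of that single control. The pseudogene Slc22a13b-ps, a near copy beside it, was at 5.35, 2.68 and 2.83 FPKM in the same libraries. The ratio of gene to pseudogene was 2.26, 2.22 and 2.36, so both rows moved in nearly the same proportion, and reads could be shared between the copies. In control replicate 1 both names stood in 1 row at 25.9 FPKM. Summed over both names, as an alternative chosen after seeing the data which assumes that the FPKM of a joined row is the sum over its transcripts, the locus was at 25.9, 17.5, 8.63 and 9.51 FPKM, which is 41.8% of control. In a fit with every joined name merged (13545 units, of which 0.111% passed as lower over all units and 4.58% at an unadjusted p), the log2 change was -1.15 (SE 0.21; adjusted p = 0.26, limma).

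Slc22a5 encodes the sodium-dependent carnitine carrier OCTN2, and Slc22a4 encodes OCTN1, which takes up ergothioneine. On mm9 chromosome 11 they lie beside Slc22a21, a further carnitine carrier gene, with Slc22a4 at 53796627 to 53841592 in the mutant tables. Slc22a5 had its own row in 3 libraries, at 18.2 FPKM in control replicate 2 and at 16.4 and 18.0 in the mutant libraries, or 90.2% and 98.7% of that control. Slc22a4 had its own row in the mutant libraries only, at 1.26 and 0.917 FPKM, so that Slc22a5 was 13.0 and 19.6 times as high there. In control replicate 2 Slc22a4 and Slc22a21 shared a row at 6.66 FPKM, where the sums of their 2 rows in the mutant libraries were 6.18 and 5.63. How much of that shared control row belongs to Slc22a4 cannot be read from the table.

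In control replicate 1 all 3 names shared 1 row at 25.9 FPKM. Summed over the 3 names under the same assumption, the locus measured 25.9 and 24.9 FPKM in controls against 22.6 and 23.6 in mutants. The values kept within a narrow range, although both mutant libraries were lower. The mutant mean was 91.0% of the control mean (25.4 ± 0.724 against 23.1 ± 0.709 FPKM), with a log2 change of -0.13 (SE 0.09; adjusted p = 0.76, limma, joined names merged). Slc22a5 made up 73.2%, 72.6% and 76.2% of the locus in the 3 libraries with a row of its own.

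**Figure D2:**
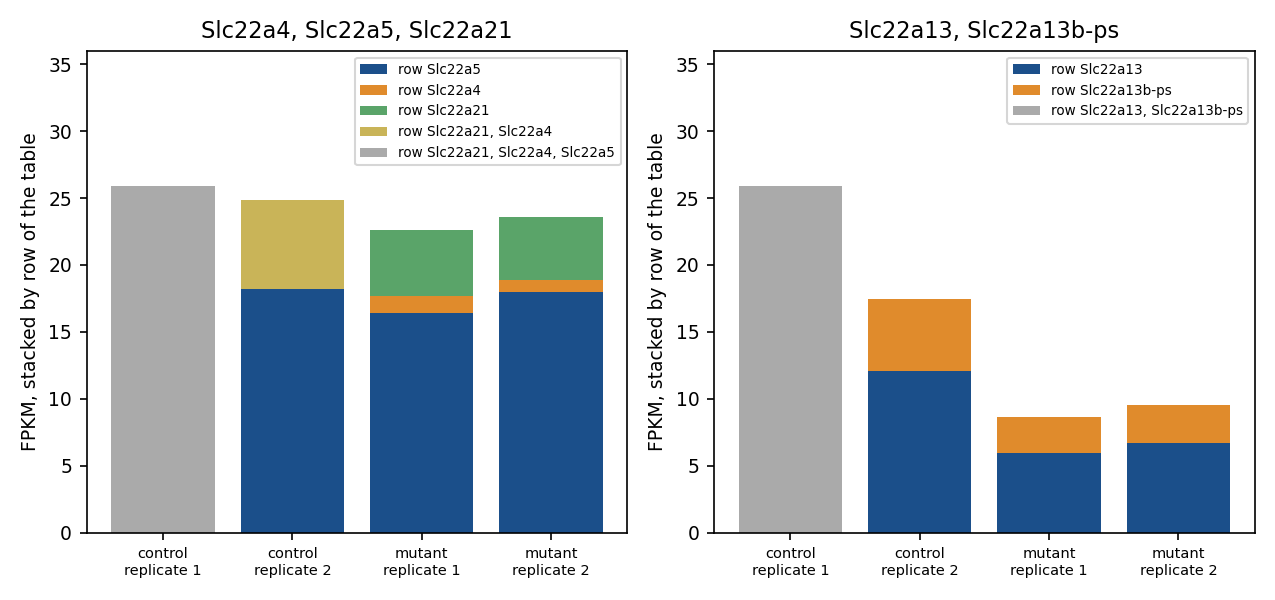
FPKM per library, stacked by the rows in which the authors' tables list the genes, for the carnitine carrier locus (left) and for Slc22a13 with its pseudogene (right). Control replicate 1 has 1 joined row at each locus (25.9 FPKM in both), the carnitine carrier locus ends between 22.6 and 25.9 in all libraries, and the Slc22a13 locus is at 8.63 and 9.51 in the mutant libraries against 17.5 and 25.9.

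Ordered by level in controls, Slc22a6 (37.2 FPKM) was followed by Slc22a19 (30.0), the carnitine carrier locus (25.4), the Slc22a13 locus (21.7), Slc22a2 (21.4), Slc22a8 (14.9), Slc22a18 (8.59) and Slc22a7 at the end. From Slc22a6 down to Slc22a2 the control values of each neighbouring pair in this order overlapped across the 2 libraries. Within each control library the same order held, but the 2 joined loci were level at 25.9 FPKM in control replicate 1. Some steps were small, such as 25.01 against 24.9 FPKM for Slc22a19 and the carnitine carrier locus in control replicate 2. Slc22a8, Slc22a18 and Slc22a7 each lay below both values of the one before. In the mutant libraries the carnitine carrier locus was highest in both (22.6 and 23.6), and Slc22a6, Slc22a19, Slc22a8, the Slc22a13 locus and Slc22a2 all lay between 6.87 and 13.1 FPKM. Slc22a6 was the highest of these 5 in mutant replicate 1 and Slc22a8 in mutant replicate 2.

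Control replicate 1 was above control replicate 2 for 5 of the 5 tested genes, by a median of 0.47 on the log2(FPKM + 1) scale. The same median was -0.03 over all tested genes and 0.12 over 14 proximal tubule markers. Between the mutant replicates it was -0.06 for the 5 genes. Replicate 1 of each group carried the Y-linked transcript Ddx3y (27.7 FPKM in control and 26.4 in mutant) and replicate 2 carried Xist (81.0 and 74.0 FPKM). Adult rodent kidneys are known to differ by sex in several of these carriers. With 1 library of each pattern in a group, sex and the other differences between replicates cannot be told apart.

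Other genes of the family were read from a list of 14, of which 8 were tested. Over all genes 0 passed with limma, and 2 were lower at an unadjusted p, Slc22a12 and Slc22a27, beside the 4.57% of all tested genes. Slc22a12, the apical urate exchanger URAT1, was at 36.4 and 29.2 FPKM in controls and 17.1 and 13.7 in mutants. Slc22a27, named after its values were seen, was at 3.44 and 4.75 against 0.695 and 1.10. Slc22a17, a receptor-like member of the family that binds lipocalin, was at 61.0 and 38.7 FPKM against 48.6 and 38.4, so its groups overlapped. Slc22a23, an orphan member, was at 12.8 and 10.4 against 9.83 and 15.2 and overlapped as well. Slc22a16 and Slc22a20 were listed at 0 in every library. The median log2 change of the 8 was -0.15. The list does not hold the whole family. Slc22a22, outside the list and named after its values were seen, was at 3.70 and 2.83 FPKM against 1.07 and 1.20.

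**Figure D3:**
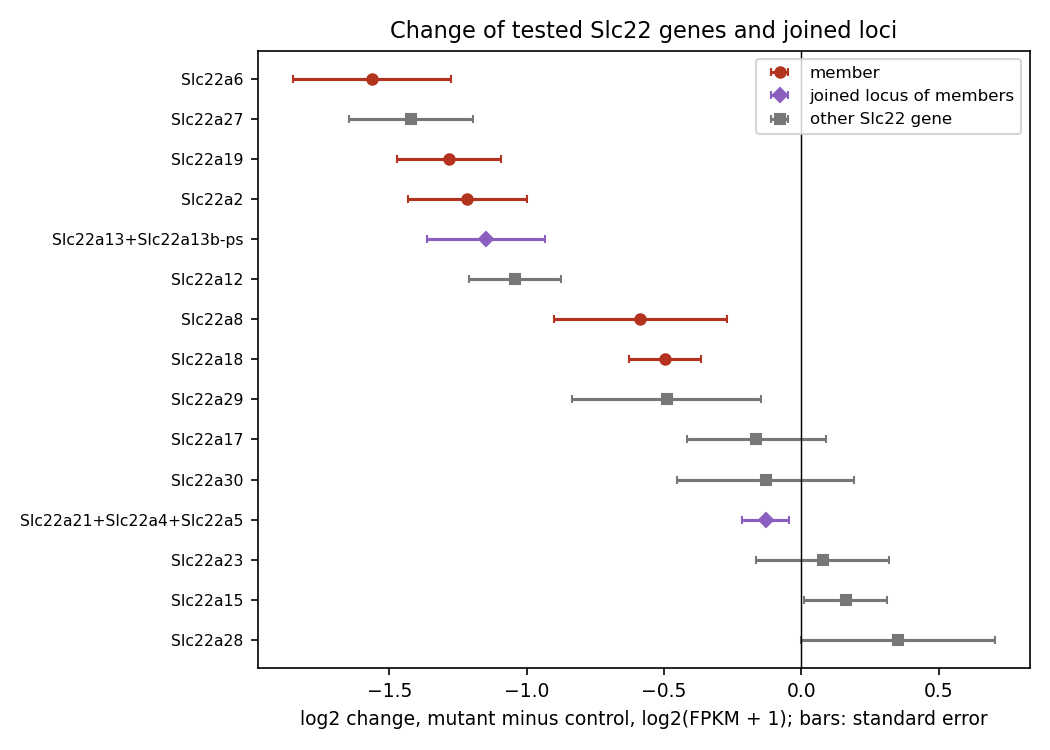
Log2 change of mutant minus control on the log2(FPKM + 1) scale, with standard errors from limma, for the 5 tested genes (red), their joined loci (purple) and 8 other tested Slc22 genes (grey). Slc22a6 has the most negative value (-1.56), Slc22a8 and Slc22a18 are at -0.59 and -0.50, and the carnitine carrier locus is at -0.13.

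Organic ions taken up from blood by the basolateral Slc22 carriers leave the cell through apical pumps and exchangers. A list of 13 genes held these together with the urate carriers Slc2a9 and Slc22a12, of which the latter takes urate up from the lumen and is also counted among the family above. Of the 13, 9 were tested, 0 passed over all genes, and 6, Slc22a12 included, were lower at an unadjusted p, beside 4.57% of all tested genes. The median log2 change was -0.66. Abcg2, an export pump, was at 46.8 and 44.2 FPKM in controls and at 31.3 and 32.3 in mutants. Slc47a1, the proton exchanger MATE1 that completes the route of organic cations begun by OCT2, was at 36.9 and 43.3 against 25.5 and 24.2 FPKM. All 9 had mutant values below control values, as 17.1% of tested genes did.

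The basolateral partners that keep anion uptake going gave a mixed picture, with 0 of 8 passing over all genes. At an unadjusted p 3 were lower, beside 4.57% of all tested genes. These are bulk kidney values, and which nephron segments hold the transcripts of this list was not tested. The most abundant were the sodium pump regulator Fxyd2 (296 and 278 against 255 and 250 FPKM), the pump subunit Atp1b1 (172 and 178 against 172 and 170) and the potassium channel subunit Kcnj16 (30.7 and 33.3 against 28.3 and 32.5). The 3 lower genes, named after their values were seen, were Slc13a3, Slc26a1 and Kcnj15. Slc13a3 brings in the dicarboxylates that OAT1 and OAT3 exchange, and was at 12.8 and 9.13 FPKM in controls and 2.71 and 3.74 in mutants. Kcnj15, a potassium channel, was at 17.1 and 11.7 against 6.11 and 6.42 FPKM. The sulfate exchanger Slc26a1 was at 17.4 and 7.77 FPKM in controls and listed at 0 in both mutant libraries.

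Genes of carnitine synthesis and transport were read beside the locus of the OCTN genes. Of 13 listed, 9 were tested, and 0 were lower or higher with limma, either over all genes or at an unadjusted p, and the median log2 change was -0.07. Both mutant values lay below both control values in 5 of the 9, beside 17.1% of all tested genes. The lowest relative to control, named after their values were seen, were the mitochondrial carrier Slc25a29 (9.96 and 12.2 against 7.99 and 8.30 FPKM, 73.7% of control) and Slc16a9 (5.05 and 4.69 against 3.69 and 3.75, 76.4%). Cpt1a, the entry enzyme of the shuttle, was at 35.9 and 34.6 against 33.0 and 33.9 FPKM. Aldh9a1, an enzyme of carnitine synthesis, was at 35.0 and 33.7 against 31.2 and 30.2. Slc25a20, the mitochondrial carnitine exchanger, was at 30.5 and 28.3 against 31.0 and 34.2. Bbox1, which makes the last step to carnitine, was below 0.1 FPKM in every library.

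PDZ scaffolds tether several of these carriers at the membrane. The list held 3 scaffolds and Pdzk1ip1, a small membrane protein that binds Pdzk1. Of these 4, all tested, 0 passed over all genes and 3 (Pdzk1, Slc9a3r1 and Pdzk1ip1) were lower at an unadjusted p, beside 4.57% of all tested genes. Pdzk1 was at 137 and 126 FPKM in controls and 68.6 and 68.4 in mutants (adjusted p = 0.057, limma), Pdzk1ip1 at 146 and 150 against 122 and 122, and Slc9a3r2 at 78.2 and 77.3 against 83.4 and 78.8. Slc9a3r1, named after its values were seen, was at 83.4 and 78.9 against 54.4 and 55.0 FPKM.

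Among 6 tested transcription factors that act on Slc22 promoters or in the proximal tubule, 0 passed over all genes. At an unadjusted p 1, Nr1h4, was lower, beside 4.57% of all tested genes. Nr1h4, the bile acid receptor, was at 6.67 and 6.11 against 2.31 and 3.94 FPKM. Pparg, a receptor of fatty acid derivatives, was at 4.72 and 6.02 against 5.62 and 4.99, so its groups overlapped. Hnf4a itself was at 89.3 and 84.6 against 87.1 and 78.5 FPKM over the whole gene. The sources used here do not say which exons the conditional allele loses, so this level does not check the genotype labels.

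Proximal tubule markers were lower in the mutant libraries, and in bulk samples fewer tubule cells and less RNA per cell cannot be told apart. The summed FPKM of 14 such markers was 718 and 621 in control and 310 and 330 in mutant libraries. All 14 had both mutant values below both control values, beside 17.1% of all tested genes, and the median log2 change was -1.27. Of the 14, 0 passed over all genes with limma, and 13 were lower at an unadjusted p under 0.05, beside 4.57% of all tested genes. Markers of progenitors, podocytes, the loop of Henle, the collecting duct, stroma and endothelium summed, by group means, to between 92.7% and 102% of control. Single mutant libraries ran from 85.0% (stroma, mutant replicate 2) to 105% (progenitors, mutant replicate 1). These lists had 0 genes past an unadjusted p of 0.05 in limma. The distal tubule list stood at 110% and the macrophage list at 101% of control by group means. The urothelium list was at 161% in mutant replicate 1 and 98.1% in mutant replicate 2, and these lists too had 0 such genes. Of the 5 distal genes, 3 had a negative log2 change (list median -0.04), while Calb1 was at 48.9 and 59.5 FPKM in controls and 117 and 67.1 in mutants. Of 4 erythroid genes tested, 1 was lower and 1 higher at an unadjusted p (sum 124% of control), beside 4.57% and 2.67% of all tested genes. The 1 gonad gene tested was not past that p. The adrenal list summed to at most 1.23 FPKM in any library, with Cyp11b1 and Cyp21a1 listed at 0. Against the proximal tubule sum, Slc22a6 amounted to 6.59% and 4.37% in controls and 4.05% and 3.18% in mutants, with both mutant shares under both control shares. Slc22a19 amounted to 4.87% and 4.03% against 3.52% and 3.72%, again without overlap. Slc22a2 amounted to 3.55% and 2.80% against 2.96% and 2.38%, where the groups overlapped. Slc22a8 was at 2.26%, 2.18% and 2.22% in the control libraries and mutant replicate 1, and at 3.99% in mutant replicate 2. Slc22a18 was at 1.23% and 1.34% in controls and at 1.83% and 1.80% in mutants, with both mutant shares above both control shares. The sum weighs abundant markers most, such as Ass1, Slc34a1 and Aqp1, at 59.2%, 39.9% and 63.8% of control. By log2 change the markers ran from -1.64 (Amn) to -0.11 (Cdh6), with the median of -1.27 given above. Slc22a6 (-1.56) and Slc22a19 (-1.28) lay within that range, so their lower shares do not show a fall beyond that of the markers. These shares are descriptions with no test.

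**Figure D4:**
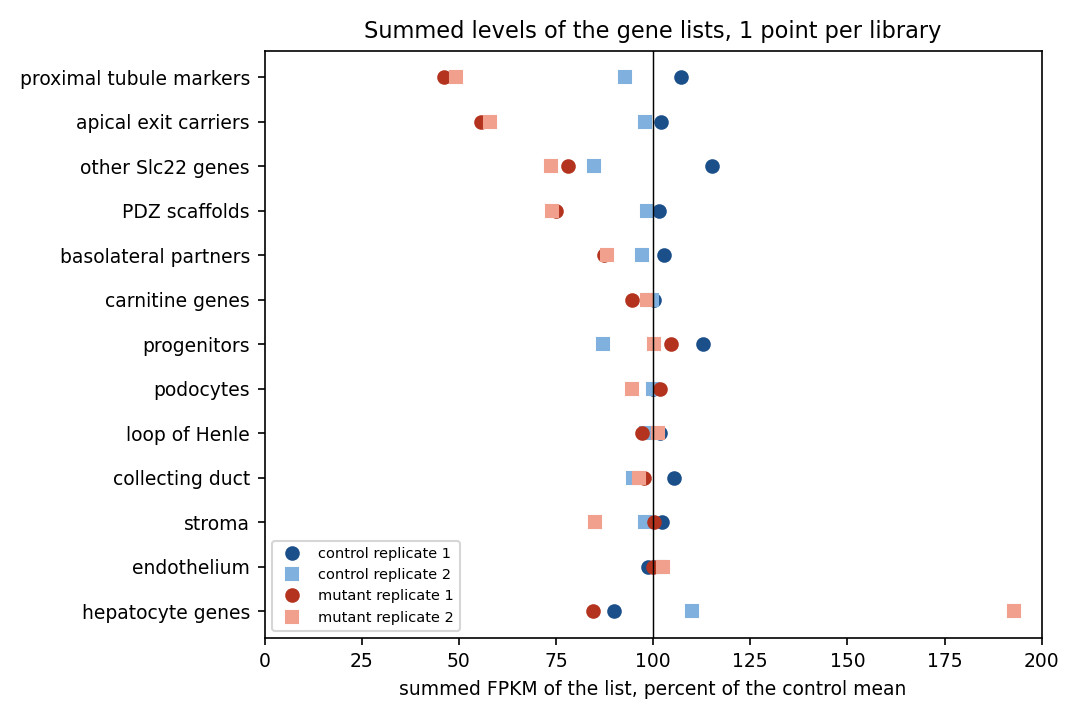
Summed FPKM of each gene list as a percentage of its control mean, with 1 point per library. The proximal tubule markers of the mutant libraries are at 46.3% and 49.3%, the carnitine genes at 94.6% and 98.5%, and the hepatocyte genes of mutant replicate 2 are at 193%.

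The remaining neighbours within 100 kb of these genes were read as well, and 0 of them passed over all genes with limma. At an unadjusted p under 0.05, Slc3a2, Pdlim4 and Acaa1b were lower and none was higher, beside 4.57% and 2.67% of all tested genes. Slc3a2, an amino acid carrier subunit beyond Slc22a6, was at 51.0 and 51.3 FPKM against 44.8 and 43.5. Pdlim4, next to Slc22a4, was at 34.3 and 32.9 against 28.0 and 27.8, and Acaa1b, a peroxisomal thiolase next to Slc22a13, at 40.6 and 34.6 against 25.5 and 31.4. Lgals12, next to Slc22a19, was at 5.27 and 8.27 against 3.14 and 4.35. The control and mutant values of Irf1 (next to Slc22a5), Oxsr1 (next to Slc22a13), Zfp318 and Dnph1 (either side of Slc22a7) overlapped.

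The genes with the most similar pattern over the 4 libraries were found among 11811 genes by the Euclidean distance of log2(FPKM + 1) centred on each gene's mean. For Slc22a6 they were Alpl (distance 0.08; 36.9, 20.5, 9.47 and 7.40 FPKM in control replicates 1 and 2 and mutant replicates 1 and 2), the alkaline phosphatase of the brush border, then Xpnpep2 (0.18), an aminopeptidase, and Mettl7b (0.19). For Slc22a2 they were Tmigd1 (0.10), Slc34a1 (0.15), the phosphate carrier, and Slc7a7 (0.17), an amino acid exchanger subunit. For Slc22a8 they were 2010107G23Rik (0.15), Hsd11b1 (0.17), which converts glucocorticoids, and Tsc2 (0.18). Each of these 3 was higher in mutant replicate 2 than in mutant replicate 1, which follows from choosing them by the pattern of Slc22a8. With 4 libraries many genes can share a pattern, so these are descriptions.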

How the data were processed

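RNA of 4 mouse kidney libraries at embryonic day 18.5 was poly(A) selected, per the labels' protocols. The FPKM values and their intervals were computed by the authors, with 1 deposited table per library. TopHat2 2.0.11, Bowtie 1.0.0, SAMtools 0.1.19, Cufflinks 2.1.1 and build mm9 are named, per the submitters' processing notes, with the options and annotation not given in the sources used here. The tables hold no read counts, so the depth is unknown and no counting interval is given. Loci were assembled in each library separately, so boundaries and joined names differ between tables.

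FPKM was summed over rows of 1 symbol. Names in all 4 tables were kept, except 99 with a row not marked OK, which left 22662. Log2(FPKM + 1) was fitted with limma 3.58.1 in R 4.3.3 (with a trend of the variance on the mean and no covariate), with adjustment over all 13287 genes tested and a threshold of 0.05. The members and lists were chosen with earlier results of these data known, so no p is adjusted over a list. Named genes were all 9 members, the 3 most abundant genes of each pathway list, neighbours within 100 kb and the 3 nearest patterns of 3 members. Besides 13 alternatives fixed beforehand, 1 was added after seeing the data, merging in all tables the names that any table joins. Some genes of the lists and neighbourhoods are not reported here, and list counts are given without them.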

Additional observations from a re-analysis of the deposited data

How the results depend on the processing

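The log2 changes of Slc22a2, Slc22a6, Slc22a8, Slc22a18 and Slc22a19 were negative under each of 14 alternatives, and 0 of these genes passed over all genes under any. Their ranges were -1.48 to -0.95 for Slc22a2, -1.95 to -1.17 for Slc22a6, -1.52 to -1.05 for Slc22a19, -0.56 to -0.33 for Slc22a18 and -1.01 to -0.16 for Slc22a8. At an unadjusted p under 0.05, Slc22a18 no longer counted as lower without either mutant library, and Slc22a8 was gained without mutant replicate 2. Over all genes limma called 15 lower and 6 higher. It called 6 lower with no filter on low values, 7 lower with no trend, and 0 to 9 lower and 0 to 5 higher with 1 library left out, the cause not being tested. With the replicate number as a block it called 3 lower and 3 higher, and 4 of the 5 Slc22 genes were lower at an unadjusted p. The share of all tested genes under that p was not taken for this fit, so the count has no background beside it. The labels do not pair the numbers (correlation of the deviations 0.146), but by Xist and Ddx3y the number matched sex in both groups, so this block is also a block on sex. A group reduced to 1 library was assumed to vary as the group with 2 does. Depth is unknown, so the precision of values as low as those of Slc22a7 cannot be given.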
